A study of Mus musculus with 12 samples.

Results

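The Slco genes encode organic anion transporting polypeptides, membrane carriers that move bile acids, conjugated steroids, thyroid hormones, prostaglandins and many drugs into cells. This report describes 6 of them, Slco1a1, Slco1a4, Slco1b2, Slco2a1, Slco2b1 and Slco3a1, out of 22180 genes measured. They were chosen from measured values of these arrays: the selection named the opposite liver differences of Slco1a1 and Slco1a4 between genotypes. The liver genotype differences of the 6 genes are therefore given as a description, with no test.

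RNA came from male Mgl2-DTR mice and age-matched male wild-type mice, both on the C57BL/6N background. Mgl2 encodes CD301b, a lectin of some mononuclear phagocytes, and DTR is the diphtheria toxin receptor, which lets the toxin kill the cells that carry it. Mice of both genotypes, the controls included, received 500 ng of diphtheria toxin per dose into the peritoneum every 3 days, and epididymal fat, inguinal fat and liver were taken on day 10. Each of the 6 groups, 3 tissues by 2 genotypes, had 2 arrays, 12 in all, and nothing in the labels says which arrays came from 1 mouse or whether RNA was pooled. The p-values therefore reflect only how far such arrays differ, which may be technical, and 2 arrays a group limit the precision of every value.

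All values below are deposited log2 levels, so a difference of 1 is a 2-fold difference, and errors of differences are standard errors (SE) from limma fitted on all 12 arrays. A gene was called at a Benjamini-Hochberg adjusted p under 0.05 over the 12710 genes tested, those whose mean passed 5.71, the median level of all single-gene probes, in at least 1 tissue. Levels belong to a probe, so they are compared between samples and not between genes. The array medians lay between 5.19 and 5.28. Mgl2 fell in epididymal fat from 7.34 to 4.22, a difference of -3.12 (SE 0.24, limma adjusted p = 0.00376). In inguinal fat it fell from 7.22 to 4.42, a difference of -2.80 (limma adjusted p = 0.00199). Its liver level was 4.24 in wild-type and 4.31 in Mgl2-DTR mice. Only its wild-type fat means lay above 5.71, so it entered the test through wild-type fat and a lower Mgl2-DTR mean was built in. Its calls are no support. Of 15 hepatocyte markers the mean level was 12.30 to 12.36 on the 4 liver arrays, and that of 11 adipocyte markers was 11.62 to 12.23 on the 8 fat arrays. Muscle genes were high on wild-type inguinal replicate 2 (mean of 9 genes 10.22) and Mgl2-DTR inguinal replicate 1 (9.96) against 6.77 and 6.70 on the other inguinal arrays, and 7 epididymal duct genes averaged 11.56 on Mgl2-DTR epididymal replicate 2 against 5.19 to 5.56 elsewhere.

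In hepatocytes Slco1b2, Slco1a1 and Slco1a4 sit in the blood-facing membrane and take up bile acids and other anions from the sinusoid, working beside the sodium-dependent bile acid carrier Slc10a1. Male mouse liver is known for high Slco1a1 and female liver for high Slco1a4, a sex difference set by sex hormones and the pattern of growth hormone release. Slco2a1 is the prostaglandin transporter, which clears prostaglandins from outside the cell, Slco2b1 carries steroid sulfates and is found in many tissues, and Slco3a1 is another widely expressed carrier.

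The 3 liver carriers lie close together on chromosome 6 and differ in the RefSeq sequence before their starts, shown here because 2 of them differed in opposite directions in liver and the other did not. In the RefSeq table (GRCm38.p6) the coding genes run in the order Slco1c1, Slco1b2, Gm5724, Slco1a4, Slco1a1, Gm6614, Slco1a6 and Slco1a5. The 250 bases upstream of the start are at chr6:141946963-141947212 for Slco1a1 (minus strand), chr6:141856221-141856470 for Slco1a4 (minus strand) and chr6:141629268-141629517 for Slco1b2 (plus strand). Each is written 5′ to 3′ on the gene's strand, and capitals mark every match, on either strand, to one of the motifs described after them.
Slco1a1: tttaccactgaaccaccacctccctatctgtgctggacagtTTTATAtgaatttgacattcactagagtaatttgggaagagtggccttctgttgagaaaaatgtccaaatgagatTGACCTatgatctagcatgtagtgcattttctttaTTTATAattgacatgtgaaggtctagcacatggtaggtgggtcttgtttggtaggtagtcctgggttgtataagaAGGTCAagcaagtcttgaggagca
Slco1a4: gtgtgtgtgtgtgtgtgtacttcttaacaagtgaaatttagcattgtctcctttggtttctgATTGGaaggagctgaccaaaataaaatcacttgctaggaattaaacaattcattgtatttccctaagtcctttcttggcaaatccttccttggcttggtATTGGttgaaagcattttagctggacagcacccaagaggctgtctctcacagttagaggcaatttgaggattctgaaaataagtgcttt
Slco1b2: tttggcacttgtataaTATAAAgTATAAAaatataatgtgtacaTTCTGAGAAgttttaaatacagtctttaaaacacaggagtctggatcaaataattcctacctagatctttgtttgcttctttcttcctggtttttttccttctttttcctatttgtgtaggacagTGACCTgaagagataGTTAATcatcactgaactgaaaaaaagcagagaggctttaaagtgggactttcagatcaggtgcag

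The motifs searched on both strands were AGGTCA, bound in part by nuclear receptors, alone and as direct repeats 3 or 4 bases apart, GTTAAT and the full HNF1 element that contains it, the STAT5 element TTCNNNGAA, TATAAA and CCAAT. Slco1a1 held AGGTCA 2 times, from 134 to 129 bases before the start on the opposite strand and from 24 to 19 bases on its own strand, and TATAAA 2 times on the opposite strand. Slco1a4 held only CCAAT, 2 times on the opposite strand. Slco1b2 held GTTAAT from 66 to 61 bases, TTCTGAGAA from 206 to 198 bases, AGGTCA on the opposite strand from 81 to 76 bases and TATAAA 2 times. Of 32851 mouse promoters of the same length, 14% held AGGTCA, 6.43% GTTAAT, 7.02% TTCNNNGAA, 12.4% TATAAA and 33.8% CCAAT. The repeats 3 and 4 bases apart and the full HNF1 element were in none of the 3 windows, and in 2, 5 and 3 of the 32851. A match is a description of the letters, not of a bound site. The longest run that the Slco1a4 window shared with an upstream window of Slco1a5, farther along the same cluster, was 20 bases, GGCTTGGTATTGGTTGAAAG, which spans a CCAAT match, while the longest it shared with Slco1a1 was 9 bases.

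Slco1a1, the male-predominant uptake carrier, was lower in Mgl2-DTR liver. Its level was 9.96 and 10.30 on the wild-type liver arrays and 9.30 and 8.44 on the Mgl2-DTR liver arrays. Both Mgl2-DTR arrays lay below both wild-type arrays, as in 15.2% of all genes tested, and the lower of them, replicate 2, stood further from them. The means were 10.13 ± 0.23 (SD, n = 2) and 8.87 ± 0.61 (SD, n = 2), a difference of -1.26 (SE 0.28), or 2.39-fold lower. Without Mgl2-DTR liver replicate 2 the difference was -0.83, and without replicate 1 it was -1.69.

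Slco1a4, the female-predominant carrier, went the other way. Its level was 7.83 and 7.61 on the wild-type liver arrays and 8.83 and 9.72 on the Mgl2-DTR liver arrays. The Mgl2-DTR arrays lay wholly above the wild-type arrays, as in 19.2% of all genes tested, and Mgl2-DTR replicate 2, lowest in Slco1a1, was the highest in Slco1a4. The means were 7.72 ± 0.15 (SD, n = 2) and 9.28 ± 0.63 (SD, n = 2), a difference of 1.56 (SE 0.26), or 2.94-fold higher. The difference was 1.11 without Mgl2-DTR replicate 2 and 1.999 without replicate 1. The order of the 4 liver arrays in Slco1a4 was the exact reverse of their order in Slco1a1, which describes 4 arrays and carries no test.

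Slco1b2, the main hepatocyte uptake carrier for bilirubin and statins, was nearly level in liver. It read 12.01 and 11.95 in wild-type liver and 12.02 and 12.13 in Mgl2-DTR liver, a difference of 0.098 (SE 0.15). The Mgl2-DTR arrays lay just above the wild-type arrays, by less than the SE, and 19.2% of all genes tested lay wholly higher. Across the 3 liver carriers, then, 1 was lower, 1 was higher and 1 differed by less than its error.

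Among the other members the liver differences were also within their errors. Slco2a1 read 10.59 and 10.77 in wild-type and 10.68 and 10.59 in Mgl2-DTR liver (difference -0.044, SE 0.18). For Slco2b1 the 4 values were 10.23, 10.28, 10.28 and 10.22, a difference of -0.0024 (SE 0.18). Slco3a1, near the dim end of the genes tested, read 5.65 and 6.04 against 5.93 and 5.46 (difference -0.15, SE 0.24). The groups overlapped for these 3 genes. Over all genes tested, the liver groups did not overlap in 34.4%, and 0.0708% were called. An unadjusted p under 0.05 in liver was found for 703 of the 12710 genes. The median liver difference over all genes was 0.011.

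**Figure D1:**
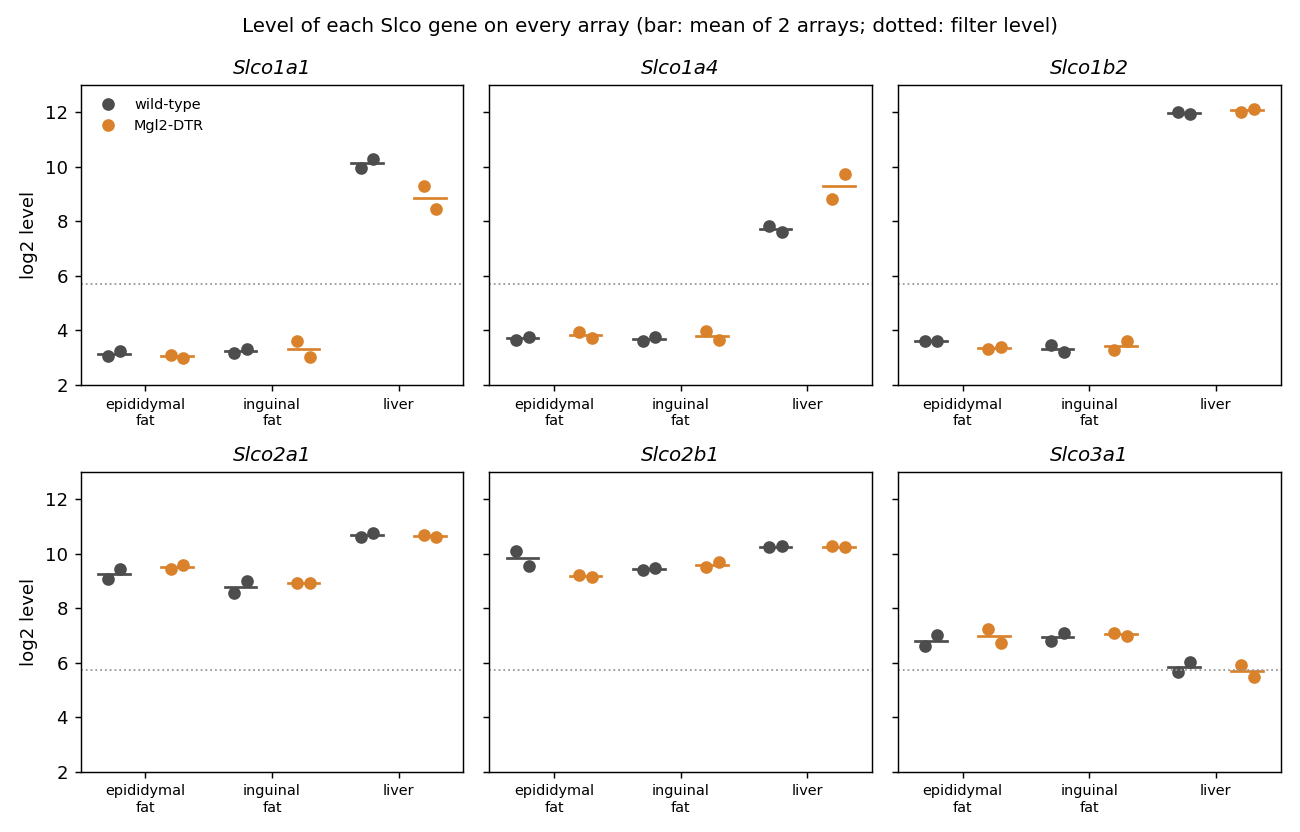
Log2 level of each of the 6 Slco genes on each of the 12 arrays, by tissue and genotype, 1 point per array, with a bar at each group's mean of 2 arrays. Slco1a1 and Slco1a4 separate the genotypes in liver in opposite directions, while Slco1b2 sits between 11.95 and 12.13 on all 4 liver arrays.

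The liver genes known to differ between the sexes were read beside them, with the Slco genes left out of the lists. Of 17 male-predominant liver genes tested, 3 were called lower in Mgl2-DTR liver and 0 higher, and all 17 had a negative difference, with a median of -0.71. Over all genes tested, 0.0393% were called lower and 0.0315% higher. Selenbp2, a selenium-binding protein, fell by 2.56 (SE 0.22, limma adjusted p = 0.0103). Cyp4a12b, a fatty acid hydroxylase of male liver, fell by 1.72 (SE 0.22, limma adjusted p = 0.036). Hsd3b5, a steroid reductase of male liver, fell by 4.28 (SE 0.56, limma adjusted p = 0.036), to 5.29, below the level of the filter. In liver it entered the test through the wild-type arrays, so a lower Mgl2-DTR mean was built in. Its call is no support, and the counts of 3 and 17 include it. The Slco1a1 difference of -1.26 was larger in size than the median of that list and smaller than these 3 falls. The count of 3 was 1 when any of 9 arrays was left out, namely each epididymal array, either wild-type inguinal array, either wild-type liver array or Mgl2-DTR liver replicate 2.

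Of 20 female-predominant liver genes tested, 3 were called higher and 0 lower, and 18 had a positive difference, with a median of 0.47. Cyp2b9, a female-predominant cytochrome, rose by 3.41 (SE 0.33, limma adjusted p = 0.0110), from 6.01 to 9.43. Slc22a26, a carrier of the Slc22 family, rose by 2.86 (SE 0.28, limma adjusted p = 0.0110), from 5.02, below the filter level. In liver it passed the filter only through the Mgl2-DTR arrays, so it had to be higher there. Its call is no support, and the counts of 3 and 18 include it. The 18 also include Acot3, at 5.17 and 5.54 in wild-type and 5.99 and 6.28 in Mgl2-DTR liver. In liver only its Mgl2-DTR arrays lay above the filter level, so its positive sign may be built in too. Cyp4a14, a fatty acid hydroxylase, rose by 1.88 (SE 0.21, limma adjusted p = 0.0152). Without the 2 muscle-bearing inguinal arrays 0 were called, with 9 at an unadjusted p under 0.05. The Slco1a4 difference of 1.56 lay between the list's median and these 3 rises. On single arrays the mean of the male list was 10.41 and 10.35 in wild-type and 9.39 and 9.07 in Mgl2-DTR liver, so Mgl2-DTR replicate 2 was lowest there, as for Slco1a1. The mean of the female list was 6.55 and 6.99 in wild-type and 7.63 and 7.62 in Mgl2-DTR liver, so the 2 Mgl2-DTR arrays were nearly level, unlike for Slco1a4.

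**Figure D2:**
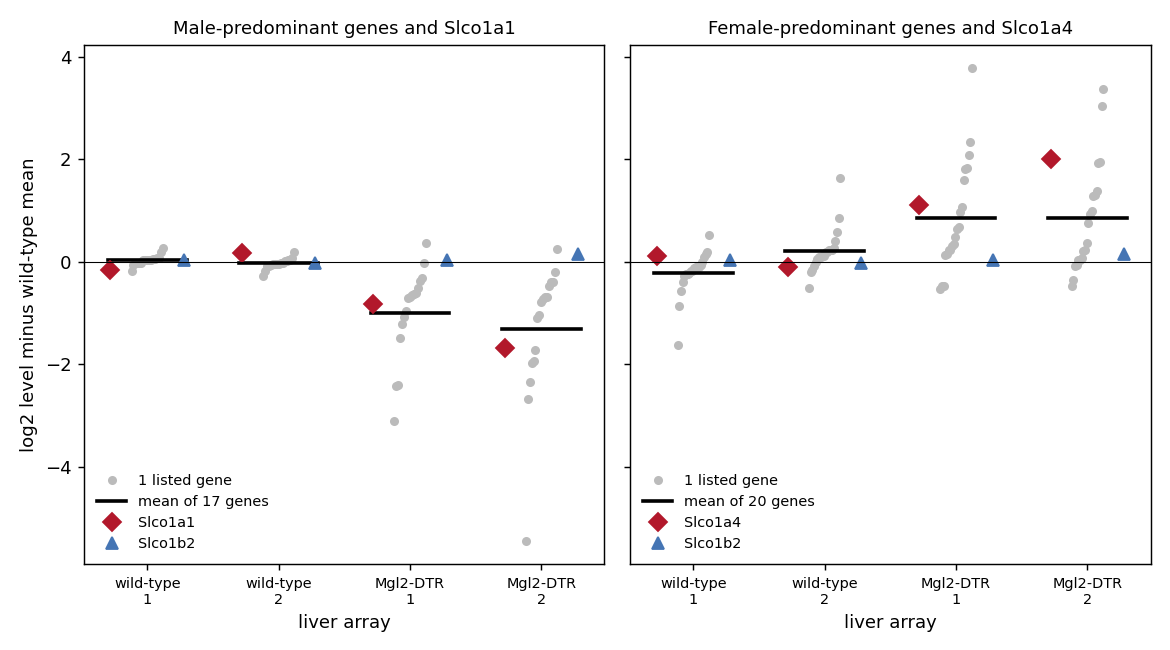
Log2 level minus the wild-type mean on each of the 4 liver arrays for 17 male-predominant genes with Slco1a1 (left) and 20 female-predominant genes with Slco1a4 (right). Grey points are single listed genes, bars are their mean, diamonds are Slco1a1 or Slco1a4 and triangles are Slco1b2, which stays near 0 in both panels.

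Cell markers were set beside the liver differences. Hepatocyte markers were level, with a median difference of -0.0030 over 15 genes and 0 called (limma, 0 also at an unadjusted p under 0.05). Of 17 pan-macrophage markers all 17 had a positive difference (median 0.61, 0 called by limma, 3 at an unadjusted p under 0.05), and the mean of the list was 7.84 and 7.72 in wild-type and 8.39 and 8.31 in Mgl2-DTR liver. Of 9 Kupffer cell markers 8 were positive (0 called by limma, 5 at an unadjusted p under 0.05), with means of 8.97 and 8.83 against 9.52 and 9.41. Their part in the Slco1a1 and Slco1a4 differences was not tested. In bulk tissue, fewer cells of a type and less RNA per cell cannot be told apart.

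Other carriers of bile acids and organic anions gave no call in liver. Of 17 tested, 0 were called by limma and 1 had an unadjusted p under 0.05, Slc22a7, a basolateral organic anion carrier, at -1.19 (SE 0.25, limma adjusted p = 0.333). Slc10a1, the sodium-dependent bile acid carrier that works beside Slco1b2, differed by -0.090, and Abcb11, the bile salt export pump, by -0.20. Abcb1a, an efflux pump for drugs, differed by 0.63 (limma adjusted p = 0.927). Of 17 nuclear receptors and factors that control liver transporters 0 were called and 4 had an unadjusted p under 0.05, the smallest for Foxa2 at -0.77 (limma adjusted p = 0.521) and Cebpa at -0.64 (limma adjusted p = 0.758). Slco1a4 is itself a known target of the xenobiotic receptor Pxr. Of 18 other targets of Pxr and its relative Car 0 were called and 3 had an unadjusted p under 0.05, with a median of 0.069. The smallest p-values were those of Gadd45b at 0.97 (limma adjusted p = 0.0863) and Cyp3a13 at 1.01 (limma adjusted p = 0.381).

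The 6 genes differed in where they were found. Slco1a1, Slco1a4 and Slco1b2 passed 5.71 only on the 4 liver arrays and lay at the dim end of the array in fat, between 2.98 and 3.99 on all 8 fat arrays. They passed the filter only through the liver and so had to differ from fat: their liver-to-fat differences are given as values with no test, and are limited by that floor. Slco2a1 and Slco2b1 were over 5.71 on all 12 arrays, and Slco3a1 on 10. Of these last 3 genes, 2 were called higher in liver than in the mean of both fat depots and 1 lower, in wild-type and in Mgl2-DTR mice alike. In wild-type mice 23.2% of all genes were called higher and 34% lower, 57.1% in all, and in Mgl2-DTR mice 19.9% and 33.7%, 53.6% in all, so a call in this comparison was common.

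Slco1b2 stood 8.50 above fat in wild-type liver (SE 0.13) and 8.68 above it in Mgl2-DTR liver. Slco1a1 stood 6.93 above fat in wild-type (SE 0.25) and 5.68 in Mgl2-DTR mice. Slco1a4 stood 4.02 above fat in wild-type (SE 0.23) and 5.46 in Mgl2-DTR mice. In fat all 3 were under the filter level in every group, so no order of their fat groups is given.

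Genotype differences of the liver carriers in fat were small on this scale. Slco1a1 read 3.05 and 3.24 in wild-type and 3.11 and 2.98 in Mgl2-DTR epididymal fat (difference -0.099, limma adjusted p = 0.968), and 3.19 and 3.32 against 3.63 and 3.02 in inguinal fat (0.074, limma adjusted p = 0.966). Slco1a4 read 3.66 and 3.77 against 3.93 and 3.71 in epididymal fat (0.11, limma adjusted p = 0.959), and 3.62 and 3.76 against 3.99 and 3.63 in inguinal fat (0.12, limma adjusted p = 0.941). Slco1b2 read 3.63 on both wild-type epididymal arrays and 3.32 and 3.38 on the Mgl2-DTR arrays, which did not overlap, as in 14.7% of all genes in that direction (-0.28, SE 0.15, limma adjusted p = 0.745), and 3.45 and 3.21 against 3.29 and 3.60 in inguinal fat (0.11, limma adjusted p = 0.887). These values lie below the filter level, so a call was unlikely for these genes in fat and their adjusted p-values say little.

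As Slco1a1, Slco1a4 and Slco1b2 were below the filter level in fat, counts over the 6 genes there rest on the other members. In epididymal fat 1 of the 6, Slco2b1, had an unadjusted p under 0.05, as did 887 of the 12710 genes tested. Over all 6 genes, 0 were called between genotypes in epididymal fat by limma, where 0.0315% of all genes were called. That background of 4 genes rested on single arrays: leaving out an epididymal array made it 763 (wild-type replicate 2), 249 (Mgl2-DTR replicate 1), 10 (wild-type replicate 1) or 0 (Mgl2-DTR replicate 2). In inguinal fat 0 were called, where 0.197% of all genes were. There 0 members had an unadjusted p under 0.05, beside 881 of the 12710 genes. The median difference of all genes in inguinal fat was 0.10, and the 6 inguinal differences, 0.074 to 0.16, lay on both sides of it. The groups did not overlap in 29.5% of all genes in epididymal fat and 46.9% in inguinal fat.

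Slco2a1, the prostaglandin transporter, was highest in liver and lowest in inguinal fat. Its epididymal level was 9.07 and 9.42 in wild-type and 9.42 and 9.56 in Mgl2-DTR mice, a difference of 0.24 (SE 0.18, limma adjusted p = 0.822). The second wild-type and first Mgl2-DTR values were almost level, so the groups overlapped. Its inguinal level was 8.56 and 8.98 in wild-type and 8.93 and 8.92 in Mgl2-DTR mice, a difference of 0.16 (limma adjusted p = 0.869). Without the 2 epididymal arrays that stood apart, wild-type replicate 1 and Mgl2-DTR replicate 2, the epididymal difference was -0.0044. Wild-type replicate 1 had the highest pan-macrophage mean of the epididymal arrays, 10.37 against 8.79 to 9.50. Wild-type replicate 2, which was kept, had a hepatocyte-marker mean of 7.05 against 5.78 to 5.95 on the other epididymal arrays.

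Liver stood 1.67 above fat for Slco2a1 in wild-type mice (SE 0.15, limma adjusted p = 1.2e-05) and 1.43 above it in Mgl2-DTR mice (limma adjusted p = 3.8e-05). Inguinal fat was lower than epididymal fat by 0.48 in wild-type mice (SE 0.18, unadjusted p = 0.0232, limma adjusted p = 0.246) and by 0.56 in Mgl2-DTR mice (unadjusted p = 0.0103, limma adjusted p = 0.154). All 4 inguinal values lay below all 4 epididymal values, but neither difference passed the threshold. Inguinal values lay wholly below epididymal values in 25.9% of all genes in wild-type and 18.1% in Mgl2-DTR mice, and the depots did not overlap in 46.7% and 52.8%. Of the 6 members 0 were called between depots by limma in either genotype, where 1.49% and 1.96% of all genes were called. At an unadjusted p under 0.05 there was 1 member in wild-type and 2 in Mgl2-DTR mice, beside 2000 and 2233 of the 12710 genes tested. Slco1a1, Slco1a4 and Slco1b2 were below the filter level in both depots. Endothelial cells are a known site of Slco2a1. The mean of 15 endothelial markers was 7.90 to 8.12 on the liver arrays and 8.40 to 9.65 on the fat arrays, the opposite order to Slco2a1, while that of 10 lymphatic and liver sinusoidal markers was 8.45 to 8.68 in liver and 6.70 to 7.11 in fat. Their part in the Slco2a1 level was not tested.

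Genes of prostaglandin synthesis and breakdown, the pathway that Slco2a1 serves, gave no call between genotypes. Of 17 tested, 0 were called by limma in each tissue, and 4, 1 and 1 had an unadjusted p under 0.05 in epididymal fat, inguinal fat and liver. Over all 12710 genes, 887, 881 and 703 had such a p. In liver the smallest p was that of Pla2g4a, the cytosolic phospholipase that frees arachidonic acid, at 0.69 (limma adjusted p = 0.370). Of the same list, 10 genes were called lower in liver than in fat in wild-type mice and 2 higher, beside 34% and 23.2% of all genes, while Slco2a1 was called higher.

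Slco2b1, the widely expressed carrier of steroid sulfates, had the smallest adjusted p of the 6 for a genotype difference in fat. In epididymal fat it read 10.09 and 9.55 in wild-type and 9.23 and 9.13 in Mgl2-DTR mice. The groups did not overlap, and wild-type replicate 1 was the highest of the 4. The means were 9.82 ± 0.38 (SD, n = 2) and 9.18 ± 0.067 (SD, n = 2), a difference of -0.64 (SE 0.18), or 1.55-fold, with an unadjusted p of 0.0051 and a limma adjusted p of 0.688. Over all genes, 14.7% had Mgl2-DTR epididymal values wholly below the wild-type values. The difference was -0.37 without wild-type replicate 1. Without wild-type replicate 2 it was -0.91 and the gene was called (limma adjusted p = 0.0111), but so were 763 genes, 6% of those tested, against 4 with all arrays. Over the alternatives the adjusted p ran from 0.0111 to 1.

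In inguinal fat Slco2b1 leaned the other way. It read 9.39 and 9.47 in wild-type and 9.49 and 9.69 in Mgl2-DTR mice, a difference of 0.16 (SE 0.18, limma adjusted p = 0.863), and 36.5% of all genes had Mgl2-DTR values wholly above the wild-type values there. The inguinal difference exceeded the epididymal one by 0.80 (SE 0.25), with an unadjusted p of 0.0100 and a limma adjusted p of 0.995. Of the 12710 genes 0% were called in that comparison by limma, and 364 had an unadjusted p under 0.05. As the depots leaned in opposite directions, Slco2b1 was lower in inguinal than in epididymal fat in wild-type mice (-0.39, limma adjusted p = 0.325) and higher in Mgl2-DTR mice (0.41, limma adjusted p = 0.273), neither past the threshold. In Mgl2-DTR mice 34.7% of all genes lay wholly higher in inguinal fat. Without wild-type epididymal replicate 2 the wild-type difference was -0.66 and was called (limma adjusted p = 0.0257), along with 11.4% of all genes.

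**Figure D3:**
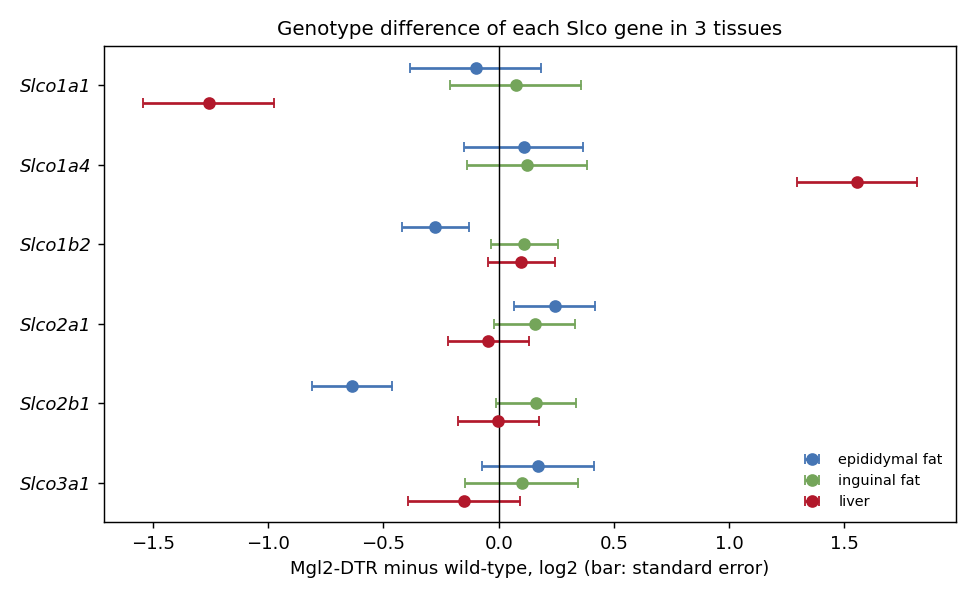
Difference in log2 level, Mgl2-DTR minus wild-type, of each of the 6 Slco genes in epididymal fat, inguinal fat and liver, with bars of 1 SE from limma fitted on 12 arrays. The liver differences of Slco1a1 (-1.26) and Slco1a4 (1.56) are the widest from 0, and Slco2b1 in epididymal fat (-0.64) is the next.

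Macrophages are a known site of Slco2b1, so their markers were set beside it. The mean of 17 pan-macrophage markers was 10.37 and 9.50 in wild-type and 9.05 and 8.79 in Mgl2-DTR epididymal fat, the same order of arrays as for Slco2b1. Of these markers 17 of 17 had a negative epididymal difference, with 0 called by limma and 11 at an unadjusted p under 0.05. Of 17 resident macrophage markers 4 were called lower, Mgl2 among them, where 0.0315% of all genes were called lower. In each depot 16 and 17 resident markers passed the filter level on the wild-type arrays, and 11 and 13 on the Mgl2-DTR arrays. A marker that passed only through wild-type fat, as Mgl2 did, had to be lower in Mgl2-DTR fat. The resident counts, 4 here and 7 in inguinal fat, are therefore no support. In inguinal fat the pan-macrophage mean was 9.15 and 9.32 in wild-type and 7.75 and 8.53 in Mgl2-DTR mice, and 3 markers were called lower, along with 7 resident macrophage markers, Mgl2 among them, where 0.189% of all genes were called lower. Without the 2 muscle-bearing inguinal arrays 0 of either list were called by limma there, with 6 and 13 at an unadjusted p under 0.05, and 0 of all genes (479 at an unadjusted p under 0.05). The counts without wild-type inguinal replicate 2 were 1 and 5, and 6 of all genes. In epididymal fat leaving out wild-type replicate 2 gave 11 pan-macrophage calls and leaving out Mgl2-DTR replicate 1 gave 3, and the resident count ran from 0 to 7 with an array left out, 0 without Mgl2-DTR epididymal replicate 2 and 1 to 2 without any single inguinal or liver array. In inguinal fat, where these markers were also lower, Slco2b1 was not lower (difference 0.16). The part of macrophages in the Slco2b1 differences was not tested. Of 15 endothelial markers 15 had a positive difference in both depots, with 0 called by limma (0 and 4 at an unadjusted p under 0.05).

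**Figure D4:**
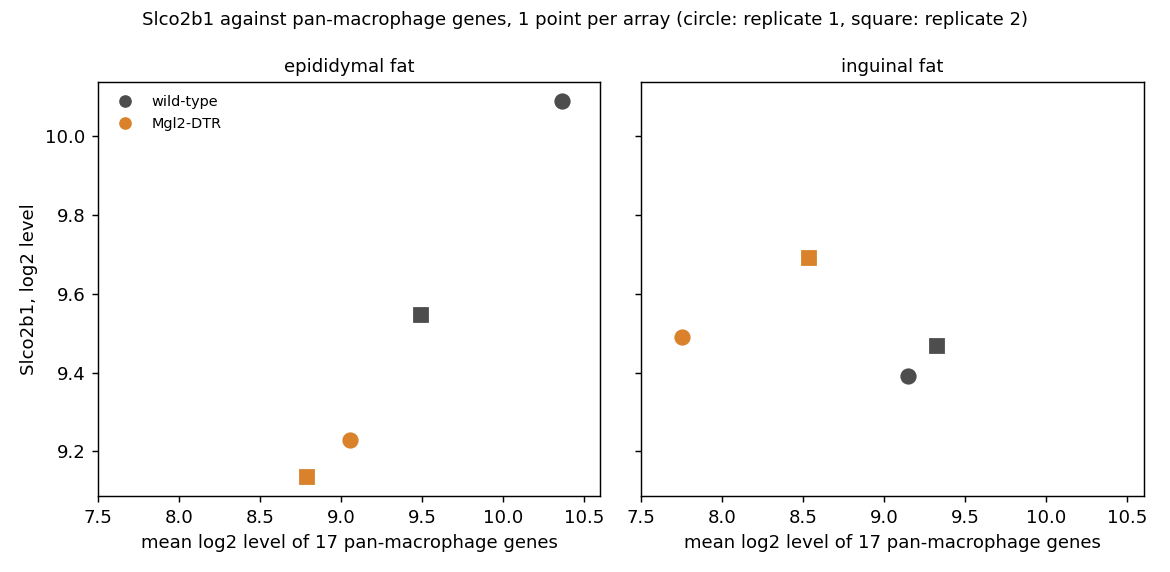
Log2 level of Slco2b1 against the mean log2 level of 17 pan-macrophage markers on the 8 fat arrays, 1 point per array, marked by depot and genotype. In epididymal fat the array highest in macrophage markers (10.37) is highest in Slco2b1 (10.09), while the inguinal arrays span 7.75 to 9.32 in markers and only 9.39 to 9.69 in Slco2b1.

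Liver exceeded fat for Slco2b1 by 0.63 in wild-type mice (SE 0.15, limma adjusted p = 0.0061) and by 0.86 in Mgl2-DTR mice (limma adjusted p = 0.00105). The 4 liver arrays read 10.22 to 10.28 and the 8 fat arrays 9.13 to 10.09. Over all genes, 23.2% were called higher in liver than in fat in wild-type and 19.9% in Mgl2-DTR mice. Slco2b1 was measured by 2 probes, and the brighter was used. The second probe, with a mean of 5.06, was below the filter level and differed by -0.21 in epididymal fat, -0.19 in inguinal fat and 0.22 in liver, so its inguinal and liver signs were not those of the brighter probe.

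Slco3a1 was the member that was lower in liver. It read 6.61 and 7.01 in wild-type and 7.23 and 6.72 in Mgl2-DTR epididymal fat (difference 0.17, SE 0.24, limma adjusted p = 0.927), and 6.80 and 7.10 against 7.10 and 6.99 in inguinal fat (0.10, limma adjusted p = 0.948). The genotypes overlapped in both depots. Its liver level was 5.46 to 6.04. The liver mean was below that of fat by 1.03 in wild-type mice (SE 0.21, limma adjusted p = 0.00252). In Mgl2-DTR mice it was below by 1.31 (limma adjusted p = 0.000603). Over all genes, 34% and 33.7% were called lower in liver than in fat in wild-type and Mgl2-DTR mice.

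The steroid sulfate and thyroid hormone genes, whose substrates several Slco carriers share, gave no call in any tissue. Of 9 tested 0 were called by limma in each tissue, and 1, 1 and 2 had an unadjusted p under 0.05 in epididymal fat, inguinal fat and liver. Over all 12710 genes, 887, 881 and 703 had such a p. The smallest liver p was that of Dio1, a deiodinase that converts thyroxine to its active form, at -1.83 (SE 0.29, limma adjusted p = 0.0863).

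The rest of the Slco family was dim. Of 13 further genes listed, 11 were measured and 0 passed the filter, so none was tested. Slco1a5 and Slco1a6, of the same chromosome 6 cluster as Slco1a1 and Slco1a4, ranged over 3.28 to 4.87 and 3.02 to 3.50, and the brain and thyroid hormone carrier Slco1c1 over 3.62 to 4.25. Neither Slco1a5 nor Slco1a6 was above 3.80 on any liver array. Slco5a1, Slco6b1, Slco6c1, Slco6d1, Gm6614 and Gm5724 reached at most 4.73. Slco4c1 was 7.79 and Slco4a1 6.13 on Mgl2-DTR epididymal replicate 2, the array with high duct genes, against at most 3.78 and 5.18 on the other 11 arrays. Slco1a5 had its highest value, 4.87, on the same array.

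**Figure D5:**
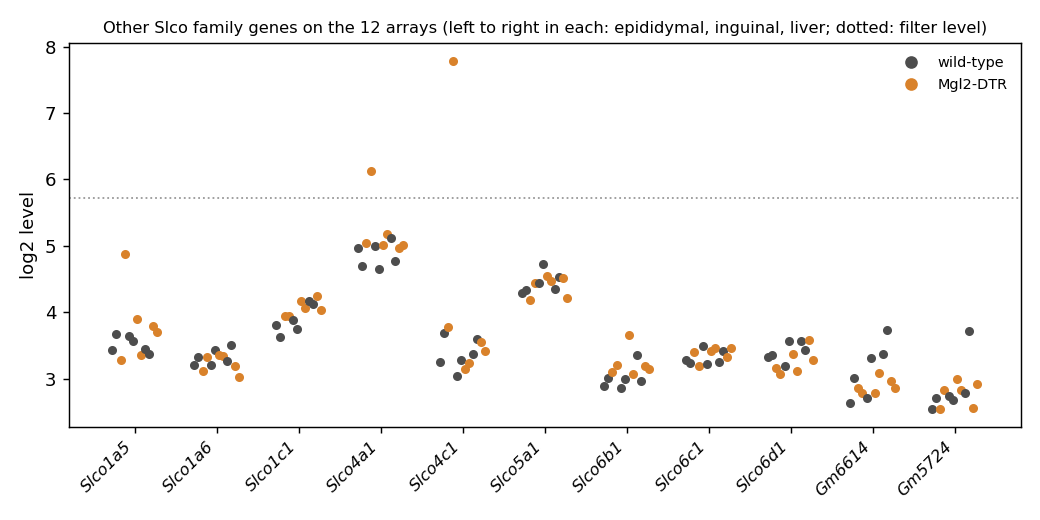
Log2 level of 11 further Slco genes on each of the 12 arrays, 1 point per array, with the filter level of 5.71 as a line. Only Slco4c1 (7.79) and Slco4a1 (6.13) pass it, both on Mgl2-DTR epididymal replicate 2.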

How the data were processed

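RNA was measured on Affymetrix mouse gene arrays, labelled with the GeneChip WT PLUS kit per the labels' protocols. The deposited values are log2 levels, 1 column per array. Limma is named in the submitters' processing notes. How background, normalization and probe summary were handled is not given in the sources used here, so no effect of those steps on low levels could be checked. Scanner files were not used here. Of 41345 probes, 23521 carry 1 gene symbol, 1814 several and 16010 none listed. They cover 22180 genes, each represented by its brightest probe. Of the Entrez identifiers 23328 were found in RefSeq, which changed 0 symbols.

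Genes over the filter (12710) were fitted in R 4.3.3 with limma 3.58.1, 1 mean per group over 12 arrays (6 residual and 3.35 prior degrees of freedom), eBayes without trend, two-sided, with Benjamini-Hochberg adjustment. The script was tested on simulated data. Same-numbered arrays gave correlations of their replicate differences of 0.053 (epididymal fat), -0.12 (inguinal fat) and 0.088 (liver), so numbers were not used to pair samples.

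The 6 genes and the lists were chosen with earlier results of these data known, so no list is independent support. The members are named in full, and of each list up to 4 called genes per direction, or else the 2 with the smallest p, were eligible. Slc10a1, Abcb11 and Acot3 were named with their values in view.

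Other settings tried were no filter, a filter at the 75th percentile (7.57), the next brightest probe, renewed quantile normalization, array weights, a robust eBayes with trend, a replicate block, single-tissue fits, and leaving out each array, the 2 muscle-bearing arrays or the 2 epididymal arrays that stood apart. A crossed block in inguinal fat was added after the data were seen. Where an array left out leaves a group with 1 array, that array is assumed to vary like the others.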

Additional observations from a re-analysis of the deposited data

Results flagged for a closer look

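In the 2 fat depots the genotype differences of Slco2b1 had opposite signs and groups that did not overlap: -0.64 in epididymal fat, where 14.7% of all genes lay wholly lower, and 0.16 (SE 0.18) in inguinal fat, where 36.5% of all genes lay wholly higher and the median of all genes was 0.10. The inguinal difference exceeded the epididymal one by 0.80, with an unadjusted p of 0.0100 and a limma adjusted p of 0.995, so it did not pass the threshold. The second, dim probe of Slco2b1 was negative in both depots (-0.21 and -0.19).

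The genotype differences of Slco1b2 also had opposite signs with groups that did not overlap. The difference was -0.28 in epididymal fat, where the gene is below the filter level and 14.7% of all genes lay wholly lower. It was 0.098 in liver, under its SE of 0.15, where 19.2% of all genes lay wholly higher. The differences in these tissues were 0.37 apart, which was not tested.

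Of the Slco genes that were dim everywhere else, Slco4c1 reached 7.79 and Slco4a1 reached 6.13 on Mgl2-DTR epididymal replicate 2, the array on which 7 epididymal duct genes averaged 11.56. Neither gene was tested, and they are given as values.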

How the results depend on the processing

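With 2 arrays a group, single arrays weighed heavily. The Slco1a1 liver difference ran from -1.69 to -0.83 and that of Slco1a4 from 1.11 to 1.999 when each array was left out, with no change of sign. Called members in epididymal fat ran from 0 to 1 and in the wild-type depot comparison from 0 to 1 (main 0 and 0), the 1 being Slco2b1 without wild-type epididymal replicate 2. In that setting 763 genes were called in epididymal fat, against 4 in the main analysis and 0 to 249 with any other array left out. In inguinal fat 25 genes were called, 6 to 38 with an array left out, 4 with inguinal arrays alone, 55 with array weights and 0 (limma, 479 at an unadjusted p under 0.05) without the muscle-bearing arrays.

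The count of male-predominant genes called lower, 3 in the main analysis, ran from 1 to 4 with an array left out. It was 1 with the replicate block, 1 without the 2 muscle-bearing arrays and 1 without the 2 epididymal arrays that stood apart. The count of female-predominant genes called higher, also 3, ran from 2 to 3 with an array left out. It was 1 with the replicate block and 0 (limma, 9 at an unadjusted p under 0.05) without the muscle-bearing arrays. With a crossed block in inguinal fat, chosen after seeing the data, the male count was 0 (limma, 11 at an unadjusted p under 0.05), the female count was 1, and the wild-type liver-to-fat call of Slco2b1 was lost. The cause of these shifts was not tested.

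The epididymal difference of Slco2a1 went from 0.24 to -0.0044 without the 2 arrays that stood apart. The replicate block changed no call of a member. Members tested fell to 5 with the stricter filter (no Slco3a1) and with the next brightest probe (no Slco2b1).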

Other observations

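Genes most alike the members over the 12 arrays, each gene centred on its own mean, were ranked among 11867 tested genes by root mean square difference. The arrays share tissue and genotype, so these likenesses are descriptions over 12 points and carry no p. For Slco1a1 they were Hsd17b6 (difference 0.32, Pearson r 0.994), Ces1g and Keg1, with liver genotype differences of -0.39, -0.54 and -0.90 against -1.26 for Slco1a1. For Slco1a4 they were Acnat2 (0.37), Tm6sf2 and Serpina7, with liver differences of 0.84, 0.55 and 1.44 against 1.56. Around Slco1b2 stood Cyp2j5 (0.25), Hrg and Ambp, with liver differences of 0.015, 0.022 and 0.036. Around Slco2a1 stood Ppat (0.18), Fam136a and Habp4, around Slco2b1 Slc15a4 (0.12), Aup1 and Crcp, and around Slco3a1 Dock1 (0.12), Gli3 and Trpc1.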
